A study of Caenorhabditis elegans with 11 samples.

Results

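The Caenorhabditis elegans files list 159 genes named col with a number, nearly all of them coding for cuticle collagens, and 97 of these were measured in whole day 1 adults. A col gene counted as measured when it reached a CPM (count scaled to a fixed library total) of 1 in at least 2 of the 8 libraries described next, and by the same rule 12054 of all 47084 listed genes were measured. The worms were grown at 20 °C on OP50 bacteria, and each library held RNA from about 1000 of them. N2, the wild type strain, gave 2 libraries. The line called WT gave 3. It joined the mu86 deletion of daf-16 with iqIs79, an integrated array that expresses GFP-tagged DAF-16 from the daf-16 promoter (daf-16p). The line called 2KR gave 3 and carried the same deletion with iqIs85, whose daf-16(K248 + 253R) differs from the WT transgene by arginine in place of 2 lysines. DAF-16, the worm FOXO protein, is a transcription factor kept in check by insulin signalling, and the design asks what the loss of these lysines does to gene expression. Both lines also carried pRF4, a plasmid with a dominant rol-6 allele that makes worms roll, and rol-6 is itself a cuticle collagen gene. Each transgene was present in 1 line, so a difference from N2 can come with the deletion, the transgene, pRF4 or the line, and these cannot be told apart. The labels speak of biological repeats without saying how they were separated, so the p-values below measure the spread between these libraries. The 4KR line was left out, because the counts in its files do not match their row names: over 24 pairs of a 4KR library and another library, log2(CPM + 1) correlated across genes at 0.372 to 0.388, against 0.994 to 0.999 over the 28 pairs without 4KR.

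The cuticle is a layered extracellular coat that the epidermis secretes anew at every molt. Its main proteins are small collagens, each a run of Gly-X-Y triplets flanked by short stretches with cysteines, which are hydroxylated, cut and cross-linked on the way to the surface. Different col genes are switched on in waves within a molting cycle and at different stages, so that larvae, dauers and adults wear coats of different make-up. Adult worms no longer molt but go on expressing part of the family, and several members are known from work on ageing to be raised when insulin signalling is lowered.

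The 62 listed members that were not measured included all 3 annotated col pseudogenes, and 4 of the 62 had no count in any library. The members nearest the limit were col-121, col-116 and col-176, with a second-highest CPM of 1.03, 1.05 and 1.07, and on the other side col-157, col-120 and col-126 with 0.956, 0.726 and 0.650. Of the 97 measured members, 61 reached 1 CPM in all 8 libraries and 4 in exactly 2. In 27 of the 97 neither N2 library reached it, so that these entered only through the transgenic lines and had to be higher there. Counts and medians over the other 70 are therefore given beside those over the 97. They were short, simple genes. Their annotated exons had a median length of 1018 bases, and 78 of the 97 lay between 900 and 1200 bases, against a median of 1410 over 13356 tested protein-coding genes. The median number of exon blocks was 2 in the family and 7 in the tested protein-coding genes. Measured members were found on every chromosome, with 27 of 42 listed on IV, 23 of 30 on V, 15 of 28 on X, 13 of 25 on II, 11 of 12 on III and 8 of 22 on I.

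Library totals ran from 21947014 to 30810301 counts. daf-16 was higher in WT than in N2 (log2 fold change 1.45 ± 0.12 SE, edgeR quasi-likelihood adjusted p = 1.29e-04) and in 2KR than in N2 (0.69 ± 0.12, adjusted p = 0.00734), and rol-6 had 2 and 3 counts in the N2 libraries and 1569 to 4469 in the transgenic ones. The headers of the count columns carry a second mark, here called the repeat tag. It is 1, 3 or 6-6 for the 3 libraries of WT and of 2KR, and 1 or 6-6 for those of N2, so that N2 has no library tagged 3. What the tag stands for is not stated.

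The family spanned more than 3 orders of magnitude in level, and most of its RNA came from a small group of genes. Levels are given here as TMM-scaled CPM, which corrects for library size and composition, and per kb of exon wherever genes are compared with each other. On the scale of mean CPM per kb, 11 members lay at 1000 and above (1010 to 2059), 11 between 100 and 1000 (116.8 to 894), 15 between 10 and 100 (11.8 to 72.7) and 60 under 10 (0.371 to 9.48). The first 11 made up 69.9% of the summed CPM of the 97 members and the next 11 made up 26.4%. The 15 of the third band made up 2.85% and the 60 of the lowest band 0.814%.

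**Figure D1:**
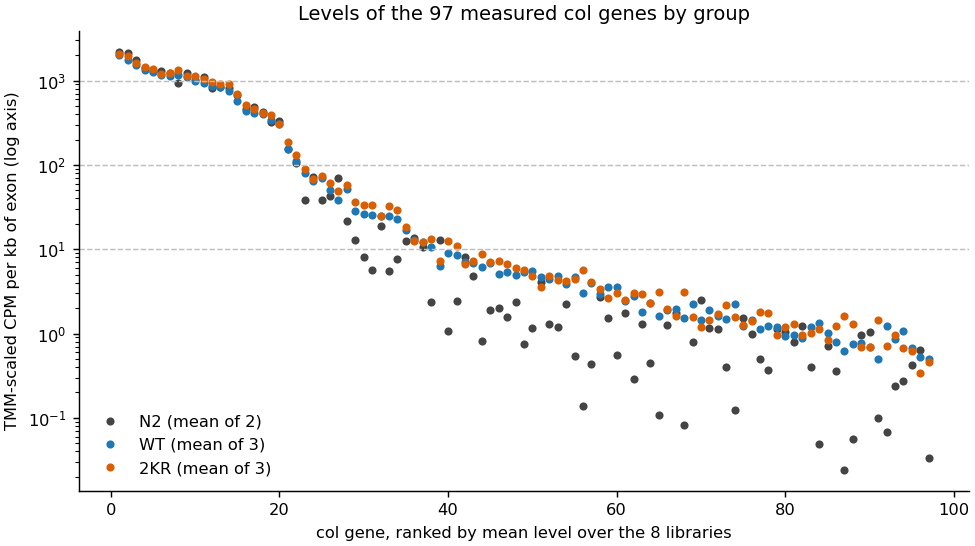
Mean TMM-scaled CPM per kb of exon (log axis) of the 97 measured col genes in N2 (mean of 2 libraries), WT and 2KR (mean of 3 each), with genes ranked by their mean over 8 libraries; dashed lines mark 10, 100 and 1000. The 3 groups lie close together above 100 per kb, and below that line many N2 points lie under the points of both transgenic lines.

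At the top of the family, N2 and the transgenic lines differed little. The 8 members of highest level per kb were col-122, col-119, col-181, col-20, col-140, col-184, col-8 and col-124, with means from 2059 CPM per kb for col-122 to 1171 for col-124. In CPM, col-122 (WBGene00000696, chromosome IV 9563379 to 9564441 of WBcel235) was at 2042 and 2124 in N2, 1922, 1712 and 2097 in WT and 1799, 1916 and 2151 in 2KR. Its groups overlapped, and its highest library was 1.26 times its lowest. col-119 was at 1781 and 1923 CPM in N2, 1588, 1429 and 1590 in WT and 1604, 1730 and 1723 in 2KR. Both N2 libraries of col-119 were above all transgenic ones, and its fold change did not pass in either line (WT over N2 -0.27 ± 0.07, adjusted p = 0.0675). col-19, the collagen that marks the adult epidermis and is switched on at the last molt, was at 921 and 979 CPM in N2, 1002, 866 and 934 in WT and 1028, 1035 and 1121 in 2KR. The level of col-19, 1058 CPM per kb on average, put it in the top band, and the labels give the worms as day 1 adults. Among the 11 members of that band the ratio of the highest to the lowest library had a median of 1.26 and was under 1.5 in 10.

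Lower down, the same ratio grew. Its median was 1.36 in the second band, 3.16 in the third and 5.99 in the lowest. For 1 of 11 members of the top band an N2 library was the lowest of the 8, and for 2 of 11, 12 of 15 and 40 of 60 in the bands below, against 32.0% of all tested genes. In the lowest band that count includes the 27 members below 1 CPM in N2, and it was 18 of the 33 others. The most even members with a mean of at least 10 CPM were col-96, col-140, col-178 and col-181. col-96 lies beside col-95 on chromosome III, and was at 13.9 and 15 CPM in N2, 13.9, 13.6 and 12.8 in WT and 12.6, 13 and 13.7 in 2KR. The least even were col-3, col-117, col-10 and col-144, all of the third band, which are described with the comparisons.

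Summed over the 97 members, the family stood at 21077 and 22180 CPM in N2, 21196, 19519 and 20783 in WT and 21407, 22614 and 23166 in 2KR. The 3 groups overlapped in pairs except that all 2KR sums were above all WT sums. As a share of all counts the family took between 1.99% and 2.35% of a library. The sum of the third band was 472 and 465 CPM in N2, 729, 620 and 496 in WT and 771, 583 and 769 in 2KR. That of the lowest band was 100.3 and 96.2 CPM in N2, 194, 231 and 143.6 in WT and 198, 245 and 192 in 2KR. For both of these bands every transgenic library was above both N2 libraries, while for the top band the groups overlapped. The sum of the second band was 5508 and 5677 CPM in N2 and 5542, 5175 and 5331 in WT, which overlapped. It was 5872, 6211 and 6113 in 2KR, above all N2 and WT libraries. The mean of the lowest band rose from 98.3 ± 2.89 CPM (SD, n = 2) in N2 to 190 ± 43.8 (n = 3) in WT and 211 ± 29.1 (n = 3) in 2KR, with no test, since the members of this band were partly admitted by their level in the transgenic lines. In RNA from whole worms, a change in the number of expressing cells and a change in RNA per cell cannot be told apart.

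**Figure D2:**
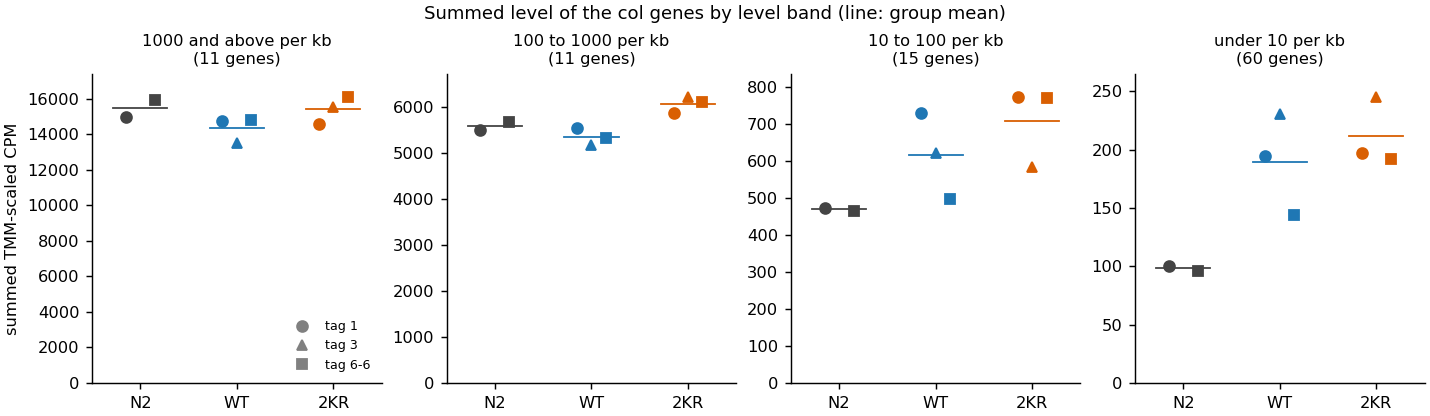
Summed TMM-scaled CPM of the col genes of each level band, 1 point per library, with the group mean as a line; the marker shows the repeat tag. In the 10 to 100 and under 10 bands all WT and 2KR libraries lie above both N2 libraries, and in the 1000 and above band the groups overlap. In the 100 to 1000 band all 2KR libraries lie above those of N2 and WT.

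WT against N2 asks how worms with the unaltered transgene differed from the wild type strain. Here 20 col genes were higher and 2 lower at an adjusted p under 0.05, 22 of 97, where 4.07% of all 14361 tested genes were called (1.86% higher and 2.21% lower). Of the 27 members below 1 CPM in both N2 libraries 7 were called higher, and among the 70 others 13 were higher and 2 lower, where 4.54% of the 11770 tested genes with 1 CPM in an N2 library were called. The median log2 fold change was 0.57 over the 97 and 0.14 over the 70, of which 42 were positive, against -0.00 over those 11770 genes. By band, the calls were 1 of 11 at the top, 0 of 11 in the second band, 5 higher and 1 lower of 15 in the third and 14 higher and 1 lower of 60 in the lowest. The N2 and WT values did not overlap for 53 of the 97 with WT higher and 11 with WT lower, against 20.4% and 19.2% of all tested genes. Among the 70 these were 30 and 11, against 19.6% and 20.6% of the 11770.

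2KR against N2 asks the same of the substituted protein. In this comparison 31 col genes were higher and 1 lower, 32 of 97, against 7.76% of all tested genes (3.76% higher and 4.0% lower). Among the 27 members below 1 CPM in both N2 libraries 13 were higher, and among the 70 others 18 were higher and 1 lower, where 8.56% of the 11770 genes were called. The median log2 fold change was 0.61 over the 97 and 0.25 over the 70, of which 47 were positive. By band, 1 of 11, 1 of 11, 6 of 15 and 23 of 60 were higher, and the member that was lower lay in the lowest band. Both comparisons use the same 2 N2 libraries, and 20 members were called in both. In 46 members all 6 transgenic libraries were above both N2 libraries, and in 7 all were below, against 13.4% and 13.6% of all tested genes. Among the 70 these were 27 and 7, against 13.1% and 14.8% of the 11770 genes. Among the 14 unmeasured members that were also tested, none was called in WT against N2 and 1, col-83, was lower in 2KR, with 11 and 19 counts in N2 and 3, 8 and 6 in 2KR (log2 fold change -1.76 ± 0.47, adjusted p = 0.0488).

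The count of calls rests on having both N2 libraries. With 1 N2 library in the fit far fewer were called, among the members and also over all genes. Such a fit has no spread within N2, so its counts are not given. Without 2KR replicate 2, 2KR against N2 called 20 members and 641 genes in all. Over the 97 members, those admitted only by the lines included, the median log2 fold change stayed between 0.48 and 0.62 for WT and between 0.49 and 0.70 for 2KR when any library was left out. These medians are partly set by the rule that admitted the members. Over the 70 with 1 CPM in an N2 library they were 0.14 and 0.25 with all libraries, and were not computed with a library left out or within a tag. Without the 2 libraries tagged 3, 23 members were higher and 2 lower in WT, and 28 were higher and 2 lower in 2KR. Over all genes these fits called 506 and 1020. The member counts again include members admitted only through the lines. Set against each other within 1 tag, as log2 ratios with 0.1 CPM added, the median over the same 97 was 0.47 for WT over N2 and 0.44 for 2KR over N2 with tag 1, and 0.38 and 0.48 with tag 6-6.

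**Figure D3:**
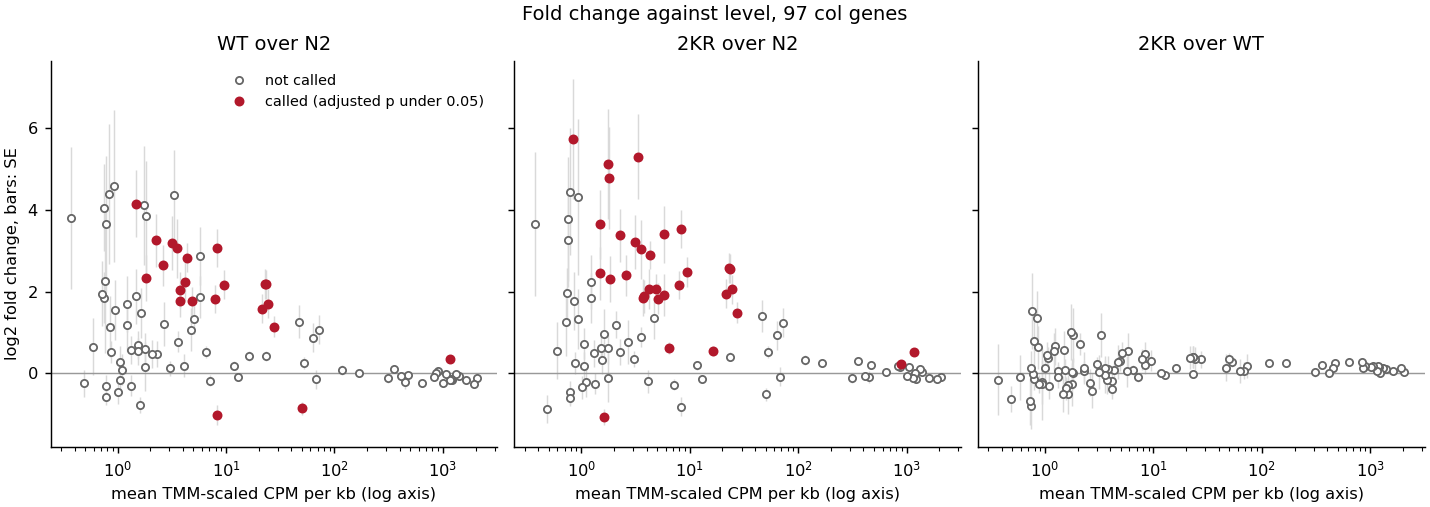
Log2 fold change of the 97 measured col genes against their mean TMM-scaled CPM per kb (log axis), for WT over N2, 2KR over N2 and 2KR over WT; bars are standard errors of the edgeR fit, and filled points passed an adjusted p of 0.05. Against N2 the called members lie mostly below 100 CPM per kb and above 0, and no point is filled in 2KR over WT.

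Of the 20 members higher in WT, 13 lay within 5000 bases of another that was higher, and of the 31 in 2KR 17 did. No expected share was computed, and these counts include members admitted only through the lines. col-3 (WBGene00000594, chromosome IV 8824783 to 8826013, plus strand) and col-117 (WBGene00000691, chromosome IV 8822962 to 8824195, minus strand) lie next to each other on opposite strands. col-3 was at 5.51 and 5.40 CPM in N2, 15.8, 39.4 and 18.9 in WT and 28.9, 31.4 and 36.7 in 2KR, and every transgenic library was above both N2 libraries, with WT replicate 2, tagged 3, the highest. Its log2 fold change was 2.17 ± 0.37 in WT (4.52-fold, adjusted p = 0.00961) and 2.57 ± 0.37 in 2KR (5.92-fold, adjusted p = 0.00352). The values of col-117 were almost the same, 5.37 and 5.31 CPM in N2, 15.5, 38.9 and 18.6 in WT and 28.6, 30.9 and 36.2 in 2KR. In every library its count was between 0.975 and 0.991 of that of col-3. Whether reads of this pair were shared out between near-identical copies was not tested, so the pair may stand for 1 measurement.

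On chromosome V, col-10, col-144 and col-145 lie in a row on the minus strand, and all 3 were higher in both lines. col-10, whose overexpression is known to lengthen the life of worms, was at 7.15 and 8.34 CPM in N2, 15.1, 39.8 and 20.7 in WT and 27.1, 33.3 and 36 in 2KR. Its log2 fold change was 1.70 ± 0.36 in WT (adjusted p = 0.0283) and 2.05 ± 0.36 in 2KR (adjusted p = 0.00889). col-144, also named in work on collagens and ageing, was at 7.62 and 7.76 CPM in N2, 13.5, 36 and 19.4 in WT and 24.6, 31 and 33.7 in 2KR. It had the same order of libraries as col-10 in WT, with the library tagged 3 on top, and its fold change was 1.58 ± 0.36 in WT (adjusted p = 0.0375) and 1.95 ± 0.36 in 2KR (adjusted p = 0.0112). The third gene, col-145, was far lower, with 0.374 and 0.491 CPM in N2 and 1.16 to 3.37 in the lines, through which alone it was admitted.

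Another stretch is a run of 4 genes on the plus strand of chromosome X, col-167, col-168, col-169 and col-170, and all 4 were higher in both lines, with log2 fold changes of 1.77 to 2.17 in WT and 1.89 to 2.48 in 2KR. col-167 was at 2.20 and 2.05 CPM in N2, 7.11, 14.9 and 6.77 in WT and 10.5, 12.2 and 12.9 in 2KR. Again no transgenic library reached down to N2, and WT replicate 2 stood above the other two WT libraries. In all, 36 of the 97 measured members lay within 5000 bases of another one, in 15 groups, and neighbours did not always go together. On chromosome II, col-20 at a mean of 1386 CPM had a log2 fold change of 0.03 ± 0.08 in 2KR against N2, while col-73 beside it, with 0.0935 and 0.178 CPM in N2 and 4.67, 9.86 and 2.31 in 2KR, had 5.31 ± 1.05 (adjusted p = 0.0153). That gene was admitted only through the lines and had to be higher there.

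col-125 and col-147 had the smallest p-values against N2 in WT, and no role is given for them here. col-147 (WBGene00000720, chromosome V 9632029 to 9633338) was at 1.64 and 0.892 CPM in N2, 11.1, 15.1 and 5.65 in WT and 15.4, 10.9 and 17.7 in 2KR, a rise of 8.40-fold in WT (log2 3.07 ± 0.47, adjusted p = 0.0055) and 11.6-fold in 2KR (3.54 ± 0.47, adjusted p = 0.00216). The exons of col-147 overlap those of T06E4.5. Its neighbour col-146, at a mean of 2.96 CPM, was higher in both lines too. That neighbour was admitted only through the lines and had to be higher there. col-125 (WBGene00000699, chromosome IV 11225506 to 11226516), which overlaps best-7, was at 0.748 and 0.669 CPM in N2, 4.94, 6.15 and 4.11 in WT and 4.41, 7.34 and 4.16 in 2KR. Of all members it had the smallest p in both comparisons, with log2 fold changes of 2.83 ± 0.35 (adjusted p = 0.00181) and 2.89 ± 0.35 (adjusted p = 0.0013), and its WT and 2KR values overlapped. col-162 went from 0.467 and 0.580 CPM in N2 to 3.83, 4.01 and 2.07 in WT and 2.45, 4.24 and 1.70 in 2KR (WT over N2 2.64 ± 0.50, adjusted p = 0.0172). Both col-125 and col-162 are among the 27 members below 1 CPM in both N2 libraries. They entered only through the lines and had to be higher there, so their calls against N2 are not independent of that rule.

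Among the abundant members, col-124 was the one that rose in both lines. It was at 1032 and 1034 CPM in N2, 1412, 1293 and 1232 in WT and 1456, 1568 and 1441 in 2KR, so that each line stood above N2 and 2KR above WT with no overlap. The rise was 0.35 ± 0.07 on the log2 scale in WT (1.27-fold, adjusted p = 0.0269) and 0.53 ± 0.07 in 2KR (1.44-fold, adjusted p = 0.0027). The exons of col-124 overlap those of qns-1, and the use of strand in counting is not given. In the second band col-80 rose in 2KR, from 864 and 859 CPM in N2 to 984, 1030 and 1018 (0.23 ± 0.05, adjusted p = 0.0314).

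Few members fell. col-135 (WBGene00000708, chromosome IV 15129655 to 15131797) was at 137 and 155 CPM in N2, 78.1, 78.1 and 85.4 in WT and 106, 75.4 and 123.8 in 2KR. All 6 transgenic libraries lay below N2, and the fall passed in WT (-0.86 ± 0.16, adjusted p = 0.0151) and not in 2KR (-0.52, adjusted p = 0.0738). col-158, which overlaps nphp-4, was at 16.2 and 15.1 CPM in N2, 8.85, 4.65 and 9.48 in WT and 9.31, 7.63 and 9.59 in 2KR, with log2 fold changes of -1.03 ± 0.24 (adjusted p = 0.0408) and -0.82 (adjusted p = 0.0628). With WT and N2 alone in the fit the adjusted p of col-158 was 0.0700. col-70 fell in 2KR, from 3.13 and 3.84 CPM in N2 to 1.67, 1.72 and 1.60 (-1.07 ± 0.20, adjusted p = 0.0122), and was at 1.99, 1.72 and 2.39 in WT. Whether these members respond differently in the 2 lines is tested by 2KR against WT, where none of them passed.

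**Figure D4:**
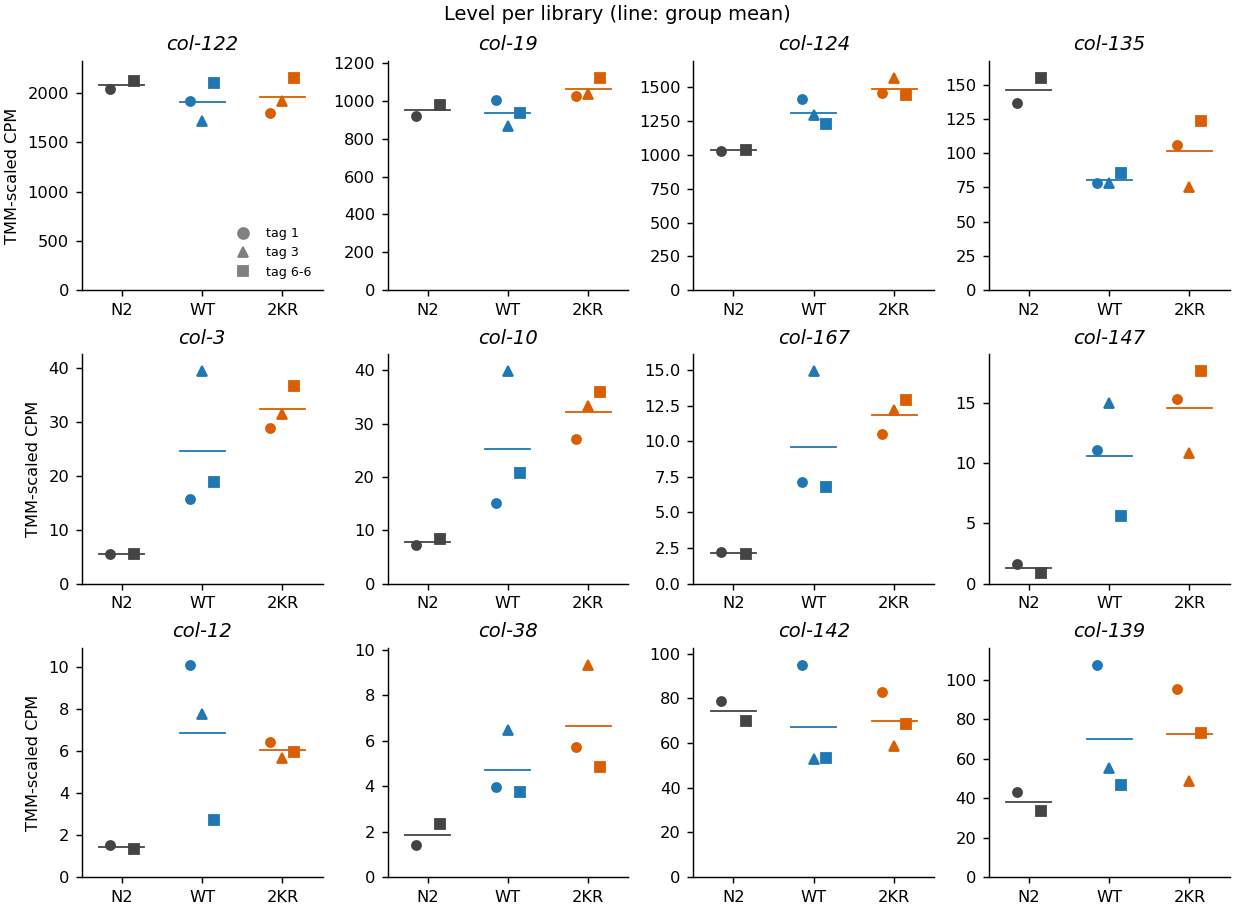
TMM-scaled CPM of 12 col genes in each library of N2, WT and 2KR, with the group mean as a line and the repeat tag as the marker; each panel has its own axis from 0. col-122 and col-19 differ little between groups, col-124 is higher and col-135 lower in both lines, col-3, col-10, col-167, col-147, col-12 and col-38 have every transgenic library above both N2 libraries, and col-142 and col-139 vary with the tag within a group.

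The other members with a known role fell on both sides. col-12 and col-13 are a tandem pair on chromosome V, expressed in the epidermis, and col-13 is another member whose overexpression lengthens life. col-12 was at 1.54 and 1.34 CPM in N2, 10.1, 7.76 and 2.70 in WT and 6.44, 5.66 and 5.97 in 2KR, with log2 fold changes of 2.25 ± 0.49 (adjusted p = 0.0318) and 2.06 ± 0.49 (adjusted p = 0.0316). WT spread widely and enclosed the 2KR values. col-13 followed it closely, with 1.5 and 1.03 CPM in N2, 7.52, 5.66 and 2.35 in WT and 4.77, 4.57 and 4.33 in 2KR (2.03, adjusted p = 0.0325, and 1.85, adjusted p = 0.0335). col-120, the third member tied to lifespan, was not measured, with 1 and 3 counts in N2, 20, 19 and 6 in WT and 11, 26 and 8 in 2KR, and it passed neither test.

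The genes col-38, col-49, col-63 and col-138 belong to the wave that the heterochronic factor LIN-29 controls in the last larval stage, and their counts were uneven within a line. col-38 was at 1.40 and 2.32 CPM in N2, 3.94, 6.48 and 3.76 in WT and 5.75, 9.35 and 4.83 in 2KR, higher in 2KR (1.83 ± 0.37, adjusted p = 0.0178) and without a call in WT (1.34, adjusted p = 0.0842). col-138 had 2 counts in each N2 library, 15, 74 and 23 in WT and 92, 119 and 16 in 2KR (2KR over N2 4.78 ± 1.26, adjusted p = 0.0464). For col-49 the counts were 2 and 2 in N2, 4, 32 and 1 in WT and 44, 65 and 4 in 2KR, and for col-63 they were 1 and 2, then 12, 51 and 12, then 66, 70 and 2. In these 3 genes the library tagged 3 was the highest of each line, and the one tagged 6-6 in 2KR fell far below the other two. Neither col-49 nor col-63 was called against N2. All of col-49, col-63 and col-138 were below 1 CPM in N2, so they were admitted only through the lines and had to be higher there.

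Of the genes reported as bound by SMA-3, the Smad of the BMP-like body size pathway, col-142 was at 78.6 and 69.9 CPM in N2, 95, 52.8 and 53.5 in WT and 82.6, 58.4 and 68.4 in 2KR, with no difference between groups that passed. col-141 was near 1 CPM everywhere, between 0.632 and 1.54. col-41, the third, had 1 count in each N2 library, 4, 15 and 39 in WT and 1, 41 and 11 in 2KR, too few for a call against N2. col-7 and col-62, neighbours on opposite strands of chromosome I that are expressed in adults, were at 1.45 and 1.07 CPM and 1.78 and 1.38 CPM in N2, and spread from 1.02 to 6.12 and from 1.26 to 6.30 over the lines. Neither passed. col-99, which encodes a transmembrane collagen with a role in the nervous system, was at 3.22 and 2.99 CPM in N2 and 1.66 to 2.29 in the lines, all 6 below N2, without passing (adjusted p = 0.13 in WT and 0.0842 in 2KR). The dauer collagen gene col-2 had 0 to 3 counts in every library, and col-183, which is used to report dauer commitment, had 2 and 1 counts in N2.

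2KR against WT compares the 2 transgenic lines, which differ in the 2 lysines and also in transgene level. daf-16 was lower in 2KR (log2 fold change -0.77 ± 0.10, adjusted p = 0.0134) and rol-6 higher (1.15 ± 0.11, adjusted p = 0.00179), so the substitution and the level cannot be told apart. No col gene passed in it (0 of 97, against 0.244% of all tested genes, 0.0766% higher and 0.167% lower). At an unadjusted p under 0.05 there were 12 of 97, and 6.58% of all tested genes, and DESeq2 called 4, col-80, col-93, col-143 and col-160. The fold changes leaned one way: 70 of 97 were positive, with a median of 0.12 against -0.00 over all tested genes, and all 22 members above 100 CPM per kb were positive. The smallest p belonged to col-143, at 570, 574 and 594 CPM in WT and 654, 759 and 692 in 2KR, against 667 and 711 in N2. Here 2KR was above WT with no overlap, and N2 lay within the 2KR values (0.28 ± 0.06, adjusted p = 0.191). col-160 was at 515, 496 and 462 CPM in WT and 568, 621 and 554 in 2KR (0.24 ± 0.06, adjusted p = 0.268), and col-93 at 804, 773 and 712 in WT and 905, 1005 and 861 in 2KR (0.28 ± 0.07, adjusted p = 0.302). Both were without overlap, as were 8 members with 2KR higher and 1 with 2KR lower in all, against 5.12% and 5.11% of tested genes.

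The title numbers pair WT with 2KR libraries, and with the number as a replicate block 5 col genes were higher in 2KR and none lower, against 1.54% of all tested genes called (0.912% higher). They were col-143 (0.27, adjusted p = 0.0116), col-93 (0.27, adjusted p = 0.0108), col-160 (0.24, adjusted p = 0.0140), col-92 and col-94. col-92, col-93 and col-94 lie in a row on chromosome III. Without WT replicate 2, and with no block, 7 members were called, and they shared no gene with the 5 called with the block. They were col-3, col-10, col-107, col-117, col-166, col-167 and col-168. For col-3, col-10, col-117, col-166 and col-167 the library left out was the highest of WT. That fit also called more of all tested genes than the main fit did. Within each tag the median log2 ratio of 2KR over WT was 0.04 (tag 1), 0.10 (tag 3) and 0.17 (tag 6-6).

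Some members differed by repeat tag. In a fit with terms for group and tag, 7 members differed between tag 6-6 and tag 1, 1 higher and 6 lower, against 4.46% of all tested genes (1.95% higher and 2.51% lower). The higher one was col-95, at 485 CPM (tag 1) and 539 (tag 6-6) in N2, 427 and 523 in WT and 442 and 576 in 2KR (0.28 ± 0.05, adjusted p = 0.00969). Among the lower ones col-139 was at 42.9 and 33.6 CPM in N2, 108 and 46.5 in WT and 95.7 and 73.2 in 2KR (-0.66 ± 0.13, adjusted p = 0.0201), falling in all 3 groups. The others were col-142, col-159, col-92, col-49 and col-133. DESeq2 called 6, of which 4 were higher and 2 lower, and 3 were among the 7, while col-139 (adjusted p = 0.108) and col-142 (adjusted p = 0.0946) were lost. The count of edgeR calls moved with single libraries. It was 0 without 2KR replicate 1, 1 without WT replicate 3, 2 without WT replicate 1 and 14 without 2KR replicate 3. Over all genes the same fits called 15, 61, 78 and 276, against 641 in the main fit. The sperm markers moved with this tag, all 8 tested being lower and 5 passing, with summed levels of 25.7, 24.0 and 19.2 CPM in the libraries tagged 1 and 19.4, 10.5 and 11.5 in those tagged 6-6. Of the muscle markers 4 of 5 were higher. The part of either in the col values was not tested.

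Tag 3 against tag 1, a comparison added after the values were seen, called 27 col genes, 19 higher and 8 lower, against 9.54% of all tested genes (5.58% higher and 3.96% lower). It rests on 1 pair of libraries in each of 2 lines. DESeq2 called 9, and the edgeR count was 7 without WT replicate 1 and 13 without 2KR replicate 1. Over all genes these 3 fits called 642, 402 and 415, against 1370 in the main fit. Several of the genes that rose against N2 were also higher with tag 3, among them col-10 (0.82, adjusted p = 0.0199), col-144 (0.82 ± 0.19, adjusted p = 0.0218) and col-38 (0.79 ± 0.16, adjusted p = 0.0105). col-139 (-0.91 ± 0.15, adjusted p = 0.00427) and col-142 (-0.62 ± 0.11, adjusted p = 0.00529) were lower with it. Over the 97 members a library tagged 3 was the highest of the 8 for 50, and 2KR replicate 2 alone for 34. The same shares over all tested genes were not computed, so these counts cannot be called a trait of the family. All 5 muscle markers were higher with tag 3, and 4 of 8 sperm markers were lower. Their part was not tested.

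**Figure D5:**
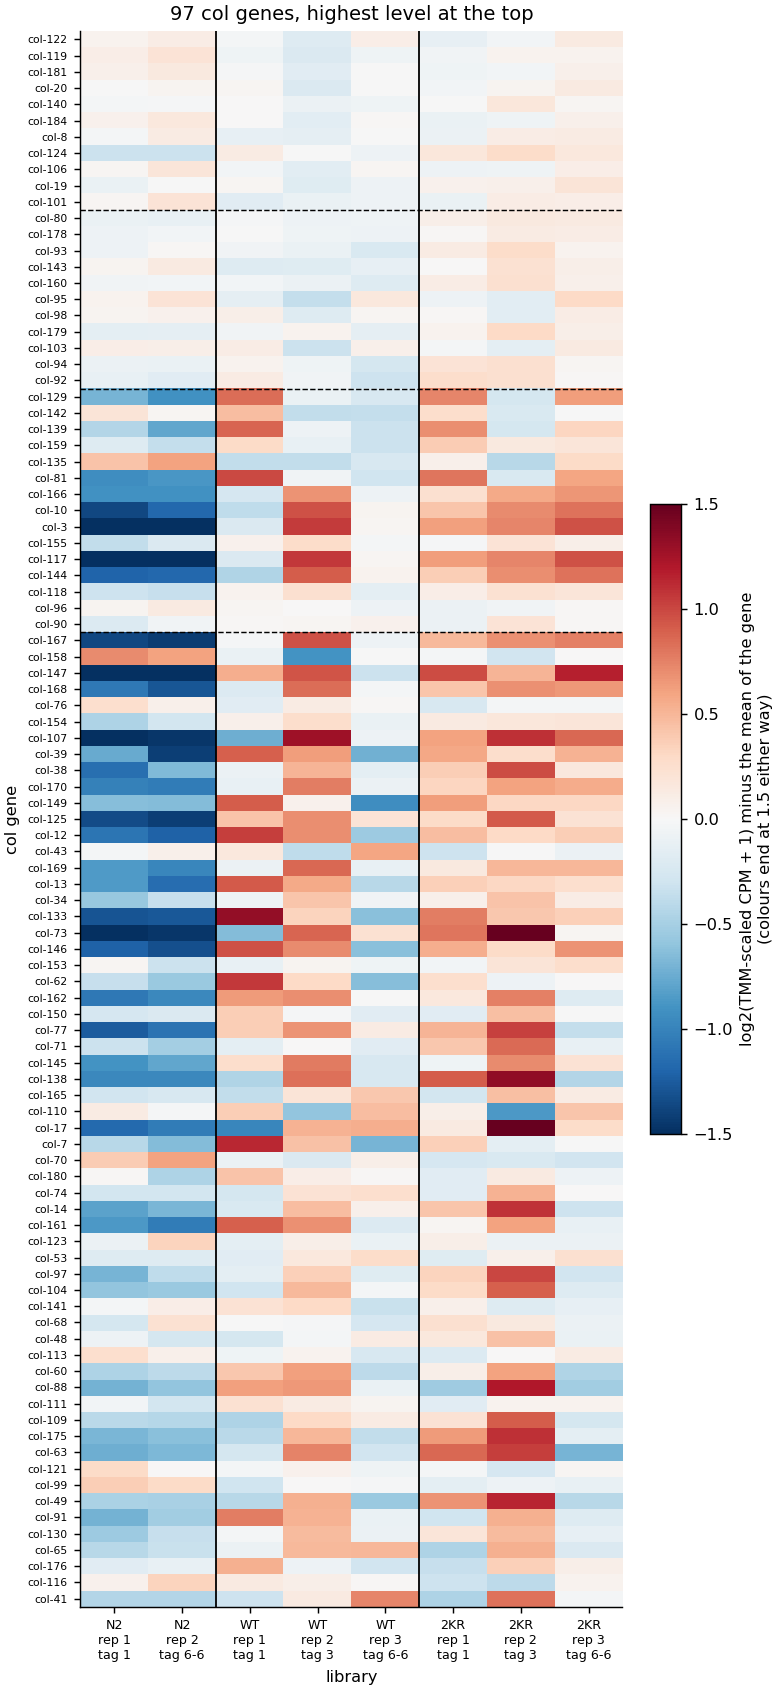
Log2(TMM-scaled CPM + 1) minus the mean of each gene over 8 libraries for the 97 measured col genes, with the highest level per kb at the top; columns are libraries with their replicate number and repeat tag, and dashed lines mark 1000, 100 and 10 CPM per kb. The upper 22 rows are pale, and below them most rows are blue in both N2 columns and differ between libraries of the same line.

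Among the genes around the family, 17 of 20 other cuticle collagens, rol-6 of pRF4 included, had a positive log2 fold change against N2 in each line. Over all tested genes 51.6% were positive in WT and 51.1% in 2KR. The counts of calls below stand beside 4.07% of all tested genes called in WT and 7.76% in 2KR. A list with 0 or 1 call is too short to be set apart from these shares. The 20 cuticle collagens with names from their mutants (dpy, rol, sqt, bli, lon), which shape the body and its surface, had a median log2 fold change of 0.63 in WT and 0.97 in 2KR against N2. rol-6, present on pRF4, was called in both (9.11 ± 0.30 and 10.26 ± 0.29). In 2KR, dpy-5 (4.43, adjusted p = 0.0192), dpy-13 (4.37, adjusted p = 0.0337) and dpy-4 (3.87, adjusted p = 0.0347) also rose, from 2 and 4, 5 and 2, and 4 and 6 counts in N2. Their counts in 2KR were highest in the library tagged 3 for each, 159, 174 and 173. Of 13 tested genes for hydroxylation, cutting and cross-linking, 0 passed in WT and 1 in 2KR, doxa-1, the maturation factor of the cuticle's dual oxidase (1.22, adjusted p = 0.0252). Of 20 regulators of cuticle collagen genes, among them the BMP-like pathway, 0 passed in WT and 1 in 2KR, bed-3, a zinc finger factor needed for molting (-0.54, adjusted p = 0.0464). None of 4 basement membrane and other collagens passed. Of 12 genes of the larval molt 0 passed in WT and 1, fbn-1, fell in 2KR (-0.92, adjusted p = 0.0238). The summed level of these molt genes was 186 and 155 CPM in N2 and 146 to 165 in the lines, a large part of it from nhr-23, which was at 66.8 to 76.4 CPM. Their part in the col values was not tested. In 2KR against WT, rol-6 was the one gene called among these 5 lists.

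Of 40 markers of other tissues, 3 passed in WT (7.5%) and 5 in 2KR (12.5%), against 4.07% and 7.76% of all tested genes. In WT and 2KR 0 of 8 sperm markers passed, with medians of -0.46 and -0.94 and all 8 negative in both. None of 6 vitellogenins passed (medians -0.13 and -0.04). None of 5 muscle markers passed, with all 5 positive in both lines (medians 0.23 and 0.27). Of 10 oocyte and eggshell markers 0 passed in WT and perm-4 was lower in 2KR (-0.28, adjusted p = 0.0380). Among 6 intestine markers act-5 and ifb-2 were higher in WT, and these with cpr-5 in 2KR. Of 5 neuron markers unc-17 was higher in both (1.21, adjusted p = 0.0483, and 1.46, adjusted p = 0.0151), and 4 of the 5 were positive in both lines, with medians of 0.41 and 0.70. Of the epidermal genes, dpy-7 was at 1.37 to 2.73 CPM, beside the col-19 levels given above, and lin-29 had 75 to 120 counts. bli-1 and bli-2 were near the floor in N2. bli-1 had 6 and 8 counts in N2, 21, 17 and 19 in WT and 14, 86 and 51 in 2KR. bli-2 had 4 and 5, then 11, 7 and 9, then 13, 46 and 26. Neither passed in WT or in 2KR (2KR over N2 2.47, adjusted p = 0.0707, and 2.26, adjusted p = 0.0594). The part of these tissues in the col values was not tested.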

How the data were processed

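The authors deposited raw counts, 1 value per gene and library, and per the file headers also a normalized RPM column, which was not used. Per the submitters' processing notes the tools were Trimmomatic 0.32, TopHat2 2.1.0 and DESeq2 1.14.1. Genome build, annotation, counting program and strand use were not given in the sources used here. Positions and exon lengths come from Ensembl 115 of WBcel235, matched by gene identifier for 159 of 159 col genes.

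Counts were scaled by TMM, filtered by filterByExpr with the groups given (14361 genes left), and tested with the edgeR 4.0.16 quasi-likelihood test in R 4.3.3, in 1 fit of 8 libraries, with Benjamini-Hochberg adjustment over all genes. Alternatives were DESeq2 1.42.0, other scalings, no filter, a replicate block and leaving out libraries. The deviations of same-numbered WT and 2KR libraries from their group means correlated at 0.413, 0.398 and 0.296 over all genes, so those numbers were taken as pairs. Those of N2 were not.

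Members, gene lists and markers were chosen with earlier results of these data known. Named are the 8 of highest level, in each planned comparison up to 6 called members a direction by p (or the 3 of smallest p), the 4 most and 4 least even, members with known roles, and those next to the CPM limit. The neighbours col-73, col-20, col-145, col-146, col-168, col-169 and col-170, and col-80, col-83 and col-94, were named after their values were seen.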

Additional observations from a re-analysis of the deposited data

How the results depend on the processing

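The log2 fold change of each called member kept its sign in every fit run. There were 0 changes in 480 values for 2KR against N2 and 330 for WT against N2. For tag 6-6 and tag 3 against tag 1 there were 0 in 83 and 0 in 189. The members were taken by their call in the main fit, and the fits share most libraries, so a change of sign was unlikely from the start. Of the members called higher, 7 in WT and 13 in 2KR had to be higher by the admission rule. Counts of calls moved. They stayed within 1.5 times of those reported, in the 4 comparisons so tested, under RLE scaling, upper-quartile scaling and TMM without the col genes. Without a filter on low counts they were 36 for WT against N2 (22 as reported), 51 for 2KR against N2 (32), 2 for 2KR against WT (0) and 24 for tag 6-6 against tag 1 (7). Over all genes these fits called 911, 1539, 99 and 898, where the main fits called 584, 1114, 35 and 641. DESeq2 gave 4 for 2KR against WT and 9 for tag 3 against tag 1 (27), with 97 and 642 over all genes (35 and 1370 in the main fits). With a replicate block by title number the counts were 58, 59 and 5 for WT against N2, 2KR against N2 and 2KR against WT, and by header tag 38, 52 and 7. Calls over all genes rose too, to 1794, 2695 and 221 by title number and 1455, 2457 and 319 by header tag. The title numbers and header tags of N2 disagree for replicate 2, so whether either of them pairs N2 with the lines is not known. With only the 6 libraries tagged 1 and 6-6, chosen after seeing the data, 2KR against WT had 5 calls, or 22 with the block by tag (18 higher, 4 lower), the N2 comparisons with that block 46 and 53, and tag 6-6 against tag 1 had 26. In the same order, these fits called 126, 622, 1679, 2911 and 1118 of all genes. Leaving out 1 library of a line gave 17 to 24 calls for WT against N2 and 20 to 26 for 2KR against N2. It gave 0 to 7 for 2KR against WT and 0 to 14 for tag 6-6 against tag 1. Tag 3 against tag 1 had 7 calls without WT replicate 1 and 13 without 2KR replicate 1. Fits that leave 1 N2 library or 1 library tagged 3 are not counted here. A fit with 1 N2 library assumes that it varies like the other groups. The ratio of summed levels of 2KR to N2, 1.04, was 1.10 without the 5 members of highest level. The cause of these differences was not tested. Of the values of single named genes under alternatives, 292 kept their side of the threshold, 48 lost the call and 14 gained it. Depth limits the lowest members: with 2 counts in each N2 library, col-138 had a log2 fold change of 4.78 ± 1.26 in 2KR.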
